A study of Mus musculus with 8 samples.

Results

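The 10 genes described here, ACSL1, ACSL3, ACSL4, ACSL5, FABP4, FABP5, CPT1A, PLIN2, ANGPTL4 and PPARD, were taken by gene symbol from an RNA-seq table of 58304 genes (Y-linked genes, XIST and TSIX left out), and all 10 had 1 row each. The list was chosen by role, with the FPKM and counts of the rFGF4 and PBS libraries compared here already known. They cover the path of a fatty acid inside the cell, together with a nuclear receptor that fatty acids bind and some of that receptor's target genes. The libraries were labelled rFGF4 (recombinant fibroblast growth factor 4, replicates 1 to 4) and PBS (the buffer control, replicates 1 to 4). Per the labels, both groups are skin of C57BL/6 mice aged 6 to 8 weeks, taken from a margin of 2 mm round a wound at day 6, and differ only in what the wound was given. The labels do not say which libraries came from separate animals, so the p-values below measure the spread between these libraries, which may be technical.

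The table did not match the labelled species. Each of its 58825 genes carried a human Ensembl identifier, and 0 carried a mouse one. Of the markers of basal keratinocytes, 9 of 9 reached a mean of 1 FPKM, and of those of fibroblasts 2 of 9 and of skeletal muscle 0 of 6. The summed basal keratinocyte markers were at 2123 to 2236 FPKM in rFGF4 and 2298 to 2618 FPKM in PBS. The summed fibroblast markers were at 7.11 to 10.1 FPKM in rFGF4 and 5.58 to 7.49 FPKM in PBS. Of the fibroblast markers only FN1 and VIM reached a mean of 1 FPKM, and FN1 alone held 51.7% to 70.3% of the sum. The part of such differences in the results below was not tested. FPKM counts fragments relative to gene length and library size, so that levels can be compared between genes. The groups below are thus the libraries that carry the rFGF4 and PBS labels, and nothing is attributed to mouse wounds. The groups did differ in the direct targets of FGF signalling. DUSP6, a phosphatase of the ERK kinases, had 32.9 to 45.3 FPKM in the rFGF4 libraries and 6.47 to 8.84 FPKM in the PBS libraries. ETV5, an ETS transcription factor, averaged 3.93 FPKM in rFGF4 and 0.787 FPKM in PBS, and SPRY4, a feedback inhibitor, averaged 0.387 FPKM in rFGF4 and 0.0582 FPKM in PBS. The FGF4 gene itself had 0 counts in all 8 libraries. The libraries held 62044121 to 73680756 counts.

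Long-chain fatty acids are held in solution inside cells by fatty acid binding proteins and are activated by acyl-CoA synthetases, which join them to coenzyme A. An activated fatty acid can be carried into mitochondria and oxidised, built into membrane lipids, or stored as triglyceride in lipid droplets. Fatty acids are also ligands of the PPAR nuclear receptors, which pair with RXR receptors on DNA and switch on genes for fatty acid handling. PPAR delta is known as a widely expressed member of the family that takes part in the response of keratinocytes to injury.

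The 10 genes did not move as a block. In the rFGF4 libraries ACSL1 and FABP4 were lower, FABP5 was higher, and the weakly expressed pair PLIN2 and ANGPTL4 was higher, while ACSL3, ACSL4, ACSL5, CPT1A and PPARD did not pass the test. The calls for FABP4 and PLIN2 were weak, passing in 6 of 18 and 8 of 17 alternative fits. Because the genes were chosen with this comparison known, the fold changes and adjusted p-values of the 10 are given as rows of a fit over all genes and are no independent support. Of the 10, 8 passed the filter at a mean FPKM of 1 over all libraries, and of these 1 was higher, 2 were lower and 5 did not pass. Over all 11536 genes tested in that fit, 5.49% were called higher and 4.54% lower. PLIN2 and ANGPTL4 lay under that filter and their values come from the fit with the filter at 0.1, in which 3.42% of 17964 genes were called higher and 3.07% lower. In that fit 4 of the 10 passed, and FABP4 did not (edgeR adjusted p = 0.0747). By FPKM alone, the ranges of the groups did not overlap for 6 of the 10 genes, with 3 higher and 3 lower in rFGF4. Over the 11536 genes, groups lay apart with rFGF4 higher for 8.76% and lower for 10.4%, and over the 17964 genes for 6.87% and 8.92%.

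**Figure D1:**
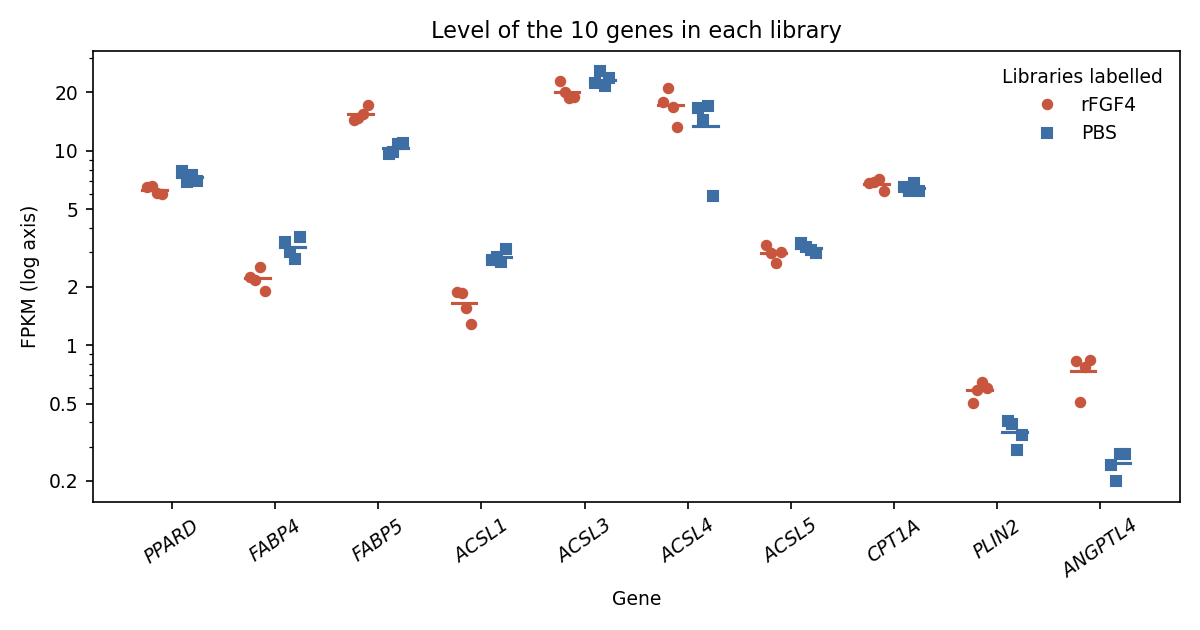
FPKM (log axis) of the 10 genes in the 4 rFGF4 libraries (circles) and the 4 PBS libraries (squares), 1 point per library, with a bar at the mean of each group. The groups lie apart for PPARD, FABP4, FABP5, ACSL1, PLIN2 and ANGPTL4 and overlap for ACSL3, ACSL4, ACSL5 and CPT1A.

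PPARD encodes PPAR delta. It had 6.53, 6.58, 6.09 and 6.02 FPKM in rFGF4 replicates 1 to 4, against 7.86, 6.90, 7.48 and 7.02 FPKM in PBS replicates 1 to 4. Every rFGF4 library was below every PBS library, but by a margin that was small beside the level. The log2 fold change was −0.19 (SE 0.06), and it did not pass the test over all genes (edgeR adjusted p = 0.0891), whereas it did with DESeq2 (adjusted p = 0.0261). PPARD lies on chromosome 6 at 35342558 to 35428191, on the plus strand, in the coordinates of the deposited table. In bulk RNA, here and below, fewer cells of a type and less RNA per cell cannot be told apart.

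Among the other receptors, PPARG and PPARA had lower means than PPARD, and RXRA and RXRB had higher means. In rFGF4 the ranges of PPARG (4.78 to 6.1 FPKM) and PPARD (6.02 to 6.58 FPKM) overlapped. PPARG, the PPAR best known from fat cells, averaged 5.56 ± 0.574 FPKM in rFGF4 and 5.01 ± 0.271 FPKM in PBS (SD, n = 4 each), and did not pass (log2 fold change 0.18, edgeR adjusted p = 0.311). PPARA was under 1 FPKM in the mean of both groups, at 0.498 ± 0.052 FPKM in rFGF4 and 0.435 ± 0.223 FPKM in PBS. RXRA, a partner receptor with which PPAR proteins bind DNA, fell to 18 ± 0.781 FPKM in rFGF4, against 24.8 ± 0.61 FPKM in PBS, which is −0.43 on the log2 scale (SE 0.05, edgeR adjusted p = 0.00121). PPRC1, a coactivator related to PGC-1, rose by 0.63 on the log2 scale (SE 0.09, edgeR adjusted p = 0.00339), with 15.7 ± 1.37 FPKM in rFGF4 and 10.3 ± 1.17 FPKM in PBS. RXRA and PPRC1 were the genes past the threshold among 15 tested receptors and coregulators, 1 higher and 1 lower. Over all tested genes 5.49% were higher and 4.54% lower. The list median was −0.05, where the median of all tested genes was 0.00. DESeq2 also called the coactivators NCOA1 and NCOA3 lower. RXRB, another RXR receptor, averaged 10.7 ± 1.07 FPKM in rFGF4 and 12.1 ± 1.72 FPKM in PBS and did not pass (log2 fold change −0.15, edgeR adjusted p = 0.43). RXRG was listed at 0 in every library, and PPARGC1A averaged 0.00101 FPKM in rFGF4 and 0.00565 FPKM in PBS.

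FABP5 and FABP4 lie close together on chromosome 8 and encode small carriers of fatty acids. FABP5 is known as the epidermal form and can hand ligands to PPAR delta, and FABP4 is known as the form of fat cells, macrophages and some endothelium. They moved in opposite directions. FABP5 had 14.5, 14.7, 15.4 and 17.3 FPKM in rFGF4 replicates 1 to 4, against 9.68, 9.87, 10.8 and 11.0 FPKM in PBS replicates 1 to 4. All rFGF4 libraries were above all PBS libraries, and the log2 fold change was 0.61 (SE 0.10, edgeR adjusted p = 0.0064). FABP4 had 2.24, 2.16, 2.53 and 1.89 FPKM in rFGF4, against 3.39, 3.01, 2.79 and 3.59 FPKM in PBS, replicates 1 to 4 in each. Again the groups did not overlap, now with rFGF4 below, and the log2 fold change was −0.51 (SE 0.13, edgeR adjusted p = 0.048). The counts of FABP4 were low, at 231 to 292 in rFGF4 and 288 to 415 in PBS, where about 4 counts stand for 1 fragment. The call for FABP4 ended when any of the 8 libraries was left out (adjusted p from 0.0514 to 0.116) and with the filter at a mean FPKM of 0.1 (adjusted p = 0.0747). That for FABP5 held in all of those fits. The ratio of FABP5 to FABP4, in FPKM, was 6.09 to 9.12 in the rFGF4 libraries and 2.86 to 3.86 in the PBS libraries.

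FABP5 has processed copies in the genome that can take some of its reads. Of 13 such pseudogenes in the table, FABP5P7 on chromosome 11 had the highest level and averaged 8.91 FPKM in rFGF4 and 5.4 FPKM in PBS, and its log2 fold change was 0.75 (SE 0.17, edgeR adjusted p = 0.028). The pseudogenes together held 10.4% to 12.6% of the joint counts in rFGF4 libraries and 9.33% to 12.6% in PBS libraries. With their counts added to FABP5, its log2 fold change was 0.63 (SE 0.10, edgeR adjusted p = 0.00557).

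The other cell types that express FABP4 were checked by their markers. Of 11 adipocyte markers, only LIPE and PPARG reached a mean of 1 FPKM, and ADIPOQ, LEP, CIDEC, CIDEA, RETN and ADRB3 were listed at 0 in every library. The summed FPKM of that list was 6.26 to 7.7 in rFGF4 and 6.34 to 6.96 in PBS, and PPARG alone held 72.8% to 79.5% of it. Of 9 macrophage markers CD68 alone reached a mean of 1 FPKM, AIF1 was at 0, and the sums were 8.17 to 11.0 FPKM in rFGF4 and 7.73 to 8.87 FPKM in PBS. CD68 held 92.9% to 96.5% of the macrophage sum, so that sum is in effect the level of CD68. Of 8 endothelial markers CDH5 alone reached a mean of 1 FPKM, with sums of 3.23 to 4.25 FPKM in rFGF4 and 1.97 to 3.25 FPKM in PBS, and none was at 0 throughout. The endothelial sums thus overlapped slightly and lay mostly higher in rFGF4, where FABP4 was lower. The part of these cell types in the level of FABP4 was not tested.

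The remaining fatty acid binding protein genes were close to absent from the table. FABP1, FABP2, FABP6, FABP7, FABP9, FABP12 and PMP2 were listed at 0 in every library, and FABP3 averaged 0.0757 FPKM in rFGF4 and 0.0891 FPKM in PBS. CD36, a fatty acid translocase, averaged 0.00316 FPKM in rFGF4 and 0.00117 FPKM in PBS. Among 3 tested genes of uptake and binding outside the 10, SCARB1, a lipoprotein receptor, rose by 0.43 on the log2 scale (SE 0.11, edgeR adjusted p = 0.0372), and CAV1 and GOT2 did not pass. SCARB1 stayed past the threshold without rFGF4 replicate 2 or 4 but not without rFGF4 replicate 1 or 3 or any PBS replicate, where its adjusted p reached 0.101. The list median was 0.08, and over all tested genes 5.49% were called higher and 4.54% lower.

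The long-chain acyl-CoA synthetases catalyse the activation step. ACSL1, on chromosome 4 at 184755595 to 184826119 on the minus strand, had 1.88, 1.85, 1.55 and 1.28 FPKM in rFGF4 replicates 1 to 4, against 2.75, 2.83, 2.68 and 3.14 FPKM in PBS replicates 1 to 4. The rFGF4 libraries were all lower, with replicate 4 lowest in rFGF4 and highest in PBS. ACSL1 fell by 0.78 on the log2 scale (SE 0.12, edgeR adjusted p = 0.00623). Of the tested genes, 342 changed by at least as much in either direction. The call held in all 18 alternative fits, with log2 fold changes from −0.85 to −0.55.

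ACSL3, an enzyme of the endoplasmic reticulum and of forming lipid droplets, was the most abundant of the 10 per length. It had 22.9, 20, 18.8 and 19.0 FPKM in rFGF4, against 22.4, 25.7, 21.5 and 23.6 FPKM in PBS, replicates 1 to 4 in each. The ranges overlapped through rFGF4 replicate 1, and the log2 fold change of −0.18 (SE 0.08) did not pass (edgeR adjusted p = 0.225). ACSL3 lies on chromosome 2 at 222860942 to 222942222 on the plus strand.

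ACSL4, which prefers arachidonate and other polyunsaturated fatty acids, came next in both groups. It had 17.9, 21.0, 16.8 and 13.3 FPKM in rFGF4, against 16.6, 14.4, 17.1 and 5.83 FPKM in PBS, replicates 1 to 4 in each. PBS replicate 4 stood well below the other libraries. The log2 fold change was 0.38 (SE 0.30, edgeR adjusted p = 0.484) with all libraries and 0.13 (SE 0.13, edgeR adjusted p = 0.595) without PBS replicate 4. ACSL4 lies on the X chromosome at 109624244 to 109733403 on the minus strand. Its span meets that of KCNE5 on the same strand, which had at most 55 counts in any library.

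ACSL5, found on mitochondria and the endoplasmic reticulum, had 3.28, 2.99, 2.66 and 3 FPKM in rFGF4 and 3.34, 3.2, 3.1 and 2.98 FPKM in PBS. The groups overlapped and the log2 fold change was −0.06 (SE 0.09, edgeR adjusted p = 0.747). The gene lies on chromosome 10 at 112374018 to 112428380 on the plus strand, and ZDHHC6, on the other strand, overlaps its end. ZDHHC6 stood higher, at 13.3 ± 0.564 FPKM in rFGF4 and 12.8 ± 0.157 FPKM in PBS, and the sources used here do not say whether reads were counted by strand, so the level of ACSL5 is uncertain. ACSL6 was listed at 0 in all libraries.

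Summed over the family, the synthetases had about the same level in the groups, with 36.6 to 46.0 FPKM in rFGF4 libraries and 35.5 to 46.1 FPKM in PBS libraries. The share of ACSL1 in that sum was 3.50% to 4.08% in rFGF4 and 6.05% to 8.85% in PBS, and these ranges did not overlap. PBS replicates 1 to 3 lay at 6.05% to 6.14%, and the 8.85% was that of PBS replicate 4, where the ACSL4 part of the sum was small. ACSL3 made up 43.6% to 52.0% in rFGF4 and 48.4% to 66.3% in PBS. The share of ACSL4 was 36.3% to 45.8% in rFGF4 and 16.4% to 38.6% in PBS, the lowest value being that of PBS replicate 4. ACSL5 made up 6.53% to 8.21% in rFGF4 and 6.93% to 8.40% in PBS. ACSL5 and ACSL1 stood at much the same level in PBS, with a ratio of 0.949 to 1.21, while in rFGF4 the ratio was 1.62 to 2.35. The uncertainty in the level of ACSL5 given above applies to its share and to this ratio.

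**Figure D2:**
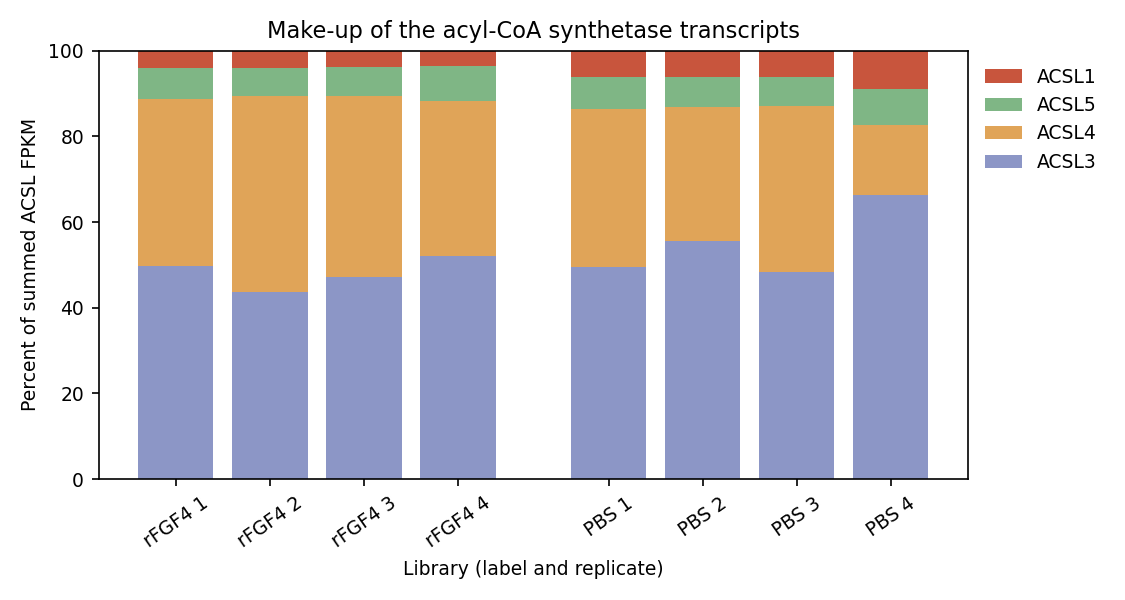
Share of each long-chain acyl-CoA synthetase gene in the summed FPKM of the family (percent, vertical axis) in each of the 4 rFGF4 and 4 PBS libraries. ACSL1, the top segment, takes 3.50% to 4.08% in rFGF4 and 6.05% to 8.85% in PBS, and PBS replicate 4 stands apart by its small ACSL4 segment.

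Of 6 other tested enzymes that activate fatty acids, 0 passed with edgeR, 2 were lower at an unadjusted p under 0.05, and the list median was −0.16. With DESeq2, ACSF2, a medium-chain acyl-CoA synthetase, was lower, and limma on log2(FPKM + 1) called 0. With the filter at a mean FPKM of 0.1, ACSS3, a mitochondrial short-chain acyl-CoA synthetase, was called lower, by 0.42 (SE 0.09, edgeR adjusted p = 0.0254), at 0.532 ± 0.0449 FPKM in rFGF4 and 0.725 ± 0.0371 FPKM in PBS. The most abundant of them were the transporter and synthetase SLC27A4, at 21.4 ± 1.54 FPKM in rFGF4 and 22.1 ± 0.674 FPKM in PBS, and the acetyl-CoA synthetase ACSS2, at 10.5 ± 1.19 FPKM in rFGF4 and 12.1 ± 0.699 FPKM in PBS. Among 11 tested acyl-CoA thioesterases and acyl-CoA binding proteins, 0 passed with edgeR (0 also at an unadjusted p under 0.05), and 0 with DESeq2 or limma. The list median was −0.03. Over all tested genes, edgeR called 5.49% higher and 4.54% lower. DBI, an acyl-CoA carrier, had 60.8 ± 2.9 FPKM in rFGF4 and 63.0 ± 2.76 FPKM in PBS, and the thioesterase ACOT7 had 14.7 ± 0.881 FPKM in rFGF4 and 13.4 ± 0.564 FPKM in PBS.

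The list around ACSL4, of arachidonate and ferroptosis genes, had 1 of 14 tested members past the threshold and a median of −0.03. Over all tested genes 5.49% were higher and 4.54% lower. LPCAT1, which acylates lysophospholipids, rose by 0.36 on the log2 scale (SE 0.07, edgeR adjusted p = 0.0137), with 8.23 ± 0.605 FPKM in rFGF4 and 6.52 ± 0.433 FPKM in PBS, and lost the call without PBS replicate 2 (adjusted p = 0.0517). DESeq2 also called MBOAT1, a related acyltransferase, lower.

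CPT1A makes acylcarnitine at the outer mitochondrial membrane, the controlled step of entry into beta-oxidation. It had 6.86, 6.91, 7.14 and 6.18 FPKM in rFGF4 replicates 1 to 4 and 6.51, 6.23, 6.82 and 6.19 FPKM in PBS replicates 1 to 4. The values interleave, and the log2 fold change was 0.10 (SE 0.06, edgeR adjusted p = 0.331). The gene lies on chromosome 11 at 68754620 to 68841931 on the minus strand. CPT1B, the muscle form, averaged 3.02 ± 0.24 FPKM in rFGF4 and 2.78 ± 0.724 FPKM in PBS.

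Of 17 tested mitochondrial oxidation genes, 1 fell and 0 rose, with a list median of −0.11, where 4.54% of all tested genes fell. That gene was HADHB, a subunit of the trifunctional protein, with 21.8 ± 0.529 FPKM in rFGF4 and 27.4 ± 1.04 FPKM in PBS (log2 fold change −0.30, SE 0.06, edgeR adjusted p = 0.0168). DESeq2 also called HADHA, the partner subunit, lower. With the filter at a mean FPKM of 0.1, ACACB, whose product malonyl-CoA inhibits CPT1, was also called lower, by 0.69 (SE 0.15, edgeR adjusted p = 0.0294), at 0.18 ± 0.0372 FPKM in rFGF4 and 0.297 ± 0.0194 FPKM in PBS. The HADHB call ended without rFGF4 replicate 1 or 3 or PBS replicate 2, with adjusted p up to 0.0604. Of 10 tested peroxisomal genes, 3 fell and 0 rose, and the median was −0.20.

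CROT, which attaches carnitine to medium-chain acyl groups for their export from peroxisomes, fell by 0.84 on the log2 scale (SE 0.07, edgeR adjusted p = 0.000391), with 4.73 ± 0.421 FPKM in rFGF4 and 8.60 ± 0.411 FPKM in PBS. EHHADH, the peroxisomal bifunctional enzyme, fell by 0.64 (SE 0.10, edgeR adjusted p = 0.00701), with 2.01 ± 0.27 FPKM in rFGF4 and 3.18 ± 0.152 FPKM in PBS. HSD17B4, the second such enzyme, fell by 0.23 (SE 0.05, edgeR adjusted p = 0.0244). The calls for CROT and EHHADH held with any library left out. That for HSD17B4 held without rFGF4 replicate 2 or 4 or PBS replicate 3 only, and its adjusted p reached 0.0824 without PBS replicate 2.

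PLIN2 coats lipid droplets and is a known PPAR target. It was weakly expressed, with 0.506, 0.588, 0.645 and 0.602 FPKM in rFGF4 replicates 1 to 4, against 0.407, 0.393, 0.288 and 0.345 FPKM in PBS replicates 1 to 4. The counts behind these values were 223 to 269 in rFGF4 and 108 to 181 in PBS, where about 4 counts stand for 1 fragment. The groups did not overlap. PLIN2 rose by 0.74 on the log2 scale (SE 0.16, edgeR adjusted p = 0.0342 with the filter at a mean FPKM of 0.1). The call held without rFGF4 replicate 1 (adjusted p = 0.049) and ended when any other library was left out, with adjusted p up to 0.0976. The gene lies on chromosome 9 at 19108375 to 19149290 on the minus strand.

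Among the perilipins PLIN3, which coats small droplets, was far more abundant than PLIN2, at 20.5 ± 0.318 FPKM in rFGF4 and 21.3 ± 0.927 FPKM in PBS, and its log2 fold change was −0.02 (SE 0.06, edgeR adjusted p = 0.84). PLIN1 averaged 0.0507 FPKM in rFGF4 and 0.0624 FPKM in PBS, and PLIN4 averaged 0.0648 FPKM in rFGF4 and 0.0876 FPKM in PBS. Of 11 tested lipid droplet genes outside the 10, 1 rose and 0 fell, with a median of −0.04, where 5.49% of all tested genes rose and 4.54% fell. HILPDA, a droplet protein that restrains triglyceride breakdown, rose by 0.31 (SE 0.08, edgeR adjusted p = 0.0452), with 6.22 ± 0.462 FPKM in rFGF4 and 5.11 ± 0.246 FPKM in PBS. Its call held without rFGF4 replicate 1 and ended when any other library was left out, with adjusted p up to 0.122, and after upper quartile scaling (adjusted p = 0.0523). Of 9 tested triglyceride synthesis genes, GPAT3, which acylates glycerol phosphate, rose by 0.90 (SE 0.14, edgeR adjusted p = 0.00648), with 5.88 ± 1.23 FPKM in rFGF4 and 3.20 ± 0.24 FPKM in PBS. The other 8 did not pass and the list median was 0.04, again beside 5.49% of all tested genes that rose. Of 11 markers of sebocytes, the lipid-storing cells of the sebaceous gland, PPARG and the desaturase gene SCD reached a mean of 1 FPKM, and AWAT1, AWAT2, MOGAT1 and MC5R were at 0 in every library. Their sum was 454 to 576 FPKM in rFGF4 and 632 to 645 FPKM in PBS. SCD alone, which many cell types express, held 98.6% to 99.2% of that sum in every library, so it is in effect the level of SCD.

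ANGPTL4 encodes a secreted inhibitor of lipoprotein lipase and is a known target of PPAR receptors and of hypoxia. It showed the largest difference of the 10 from a low level, with 0.825, 0.509, 0.767 and 0.837 FPKM in rFGF4 replicates 1 to 4, against 0.241, 0.199, 0.276 and 0.276 FPKM in PBS replicates 1 to 4. Every rFGF4 library was above every PBS library, with rFGF4 replicate 2 the lowest of its group. The counts behind them were 109 to 183 in rFGF4 and 39 to 53 in PBS. The log2 fold change was 1.60 (SE 0.23, edgeR adjusted p = 0.00546 with the filter at a mean FPKM of 0.1), and the call held with any library left out, with values from 1.5 to 1.75. ANGPTL4 lies on chromosome 19 at 8363289 to 8374370 on the plus strand.

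The lipase that ANGPTL4 inhibits was near absent, LPL being listed at 0 in all rFGF4 libraries and averaging 0.0026 FPKM in PBS. Of 4 tested genes around lipoprotein lipase, FURIN, a protease that cleaves proteins of this family, rose by 0.57 on the log2 scale (SE 0.06, edgeR adjusted p = 0.00146), with 16.5 ± 1.02 FPKM in rFGF4 and 11.3 ± 0.247 FPKM in PBS. The median of that list was 0.07, and over all tested genes 5.49% rose and 4.54% fell. Endothelial lipase, LIPG, did not pass, at 5.83 ± 1.52 FPKM in rFGF4 and 5.79 ± 0.342 FPKM in PBS.

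**Figure D3:**
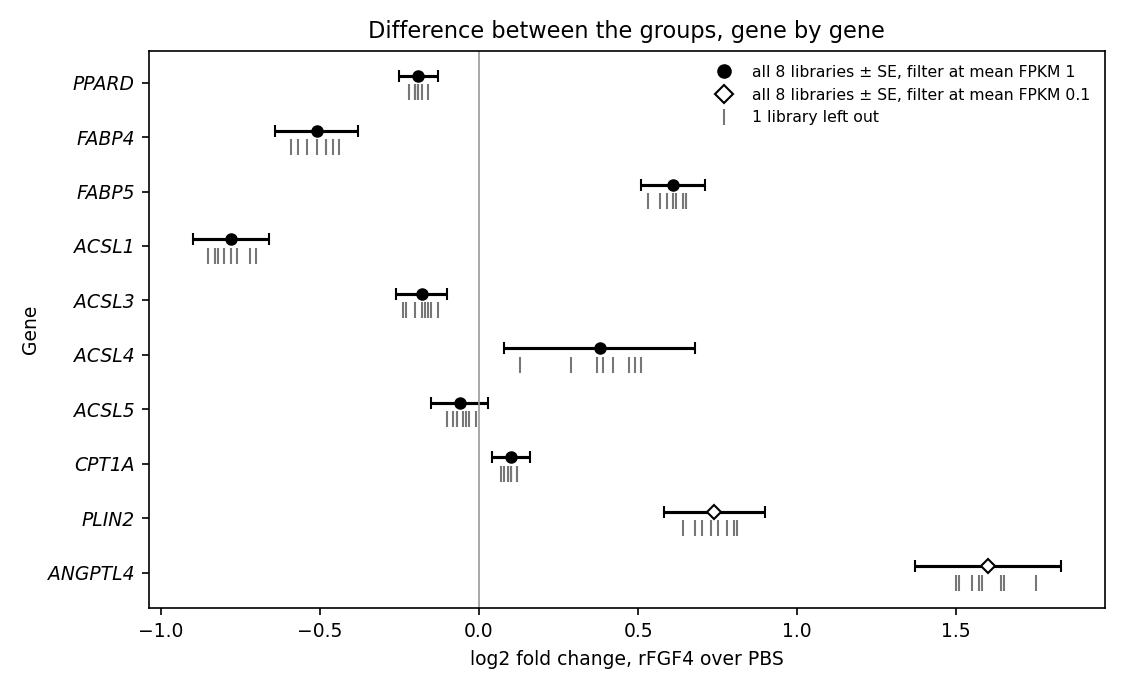
log2 fold change of rFGF4 over PBS for the 10 genes, with bars of 1 SE, from the fits over all genes, and with 1 library left out at a time (grey ticks). ANGPTL4 stands at 1.60 and ACSL1 at −0.78, and the ticks of each gene stay on 1 side of 0.

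Other textbook PPAR targets were set beside the 10 genes. Of 15 tested targets outside the 10, 0 rose and 4 fell with edgeR, where 5.49% of all tested genes rose and 4.54% fell. At an unadjusted p under 0.05, with DESeq2 or with limma, 0 were higher. The list median was −0.13. The genes that fell were HADHB and EHHADH, described above, CAT, the peroxisomal catalase, by 0.43 (SE 0.06, edgeR adjusted p = 0.00321), and TXNIP, a regulator of glucose uptake, by 0.80 (SE 0.10, edgeR adjusted p = 0.00189). CAT had 16.5 ± 0.565 FPKM in rFGF4 and 22.6 ± 1.13 FPKM in PBS, and TXNIP had 2.77 ± 0.254 FPKM in rFGF4 and 4.92 ± 0.271 FPKM in PBS. PDK4, a known PPAR target, was listed at 0 in all 8 libraries, so it gives no comparison of the groups. The list held 30 genes, of which 15 were tested, and leaves out ANGPTL4 and PLIN2 as members of the 10. The activity of PPAR receptors was not tested.

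Since ANGPTL4, PLIN2 and HILPDA are also known to respond to hypoxia, HIF target genes were set beside them. Of 16 tested, 2 rose and 2 fell, where 5.49% of all tested genes rose and 4.54% fell, and the list median was −0.11. VEGFA, which promotes vessel growth, rose by 1.29 on the log2 scale (SE 0.05, edgeR adjusted p = 5.22e-05), with 10.2 ± 0.247 FPKM in rFGF4 and 4.26 ± 0.121 FPKM in PBS. The other gene that rose was HILPDA, itself named as a reason for this list, and its call had the limits given above. DDIT4, an inhibitor of mTORC1 and the most abundant gene of the list, with 177 ± 26.8 FPKM in rFGF4 and 279 ± 17.7 FPKM in PBS, fell by 0.63 (SE 0.12, edgeR adjusted p = 0.0131). PFKFB4, a regulator of glycolysis, fell by 0.44 (SE 0.09, edgeR adjusted p = 0.0152). The call for PFKFB4 ended without rFGF4 replicate 1 (adjusted p = 0.0518) or 3 (adjusted p = 0.0502). With DESeq2 3 of the list rose and 3 fell, and with limma on log2(FPKM + 1) 1 rose and 3 fell. LDHA, lactate dehydrogenase A and the next most abundant, at 196 ± 19.2 FPKM in rFGF4 and 203 ± 12.3 FPKM in PBS, did not pass. The part of hypoxia in these values was not tested.

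**Figure D4:**
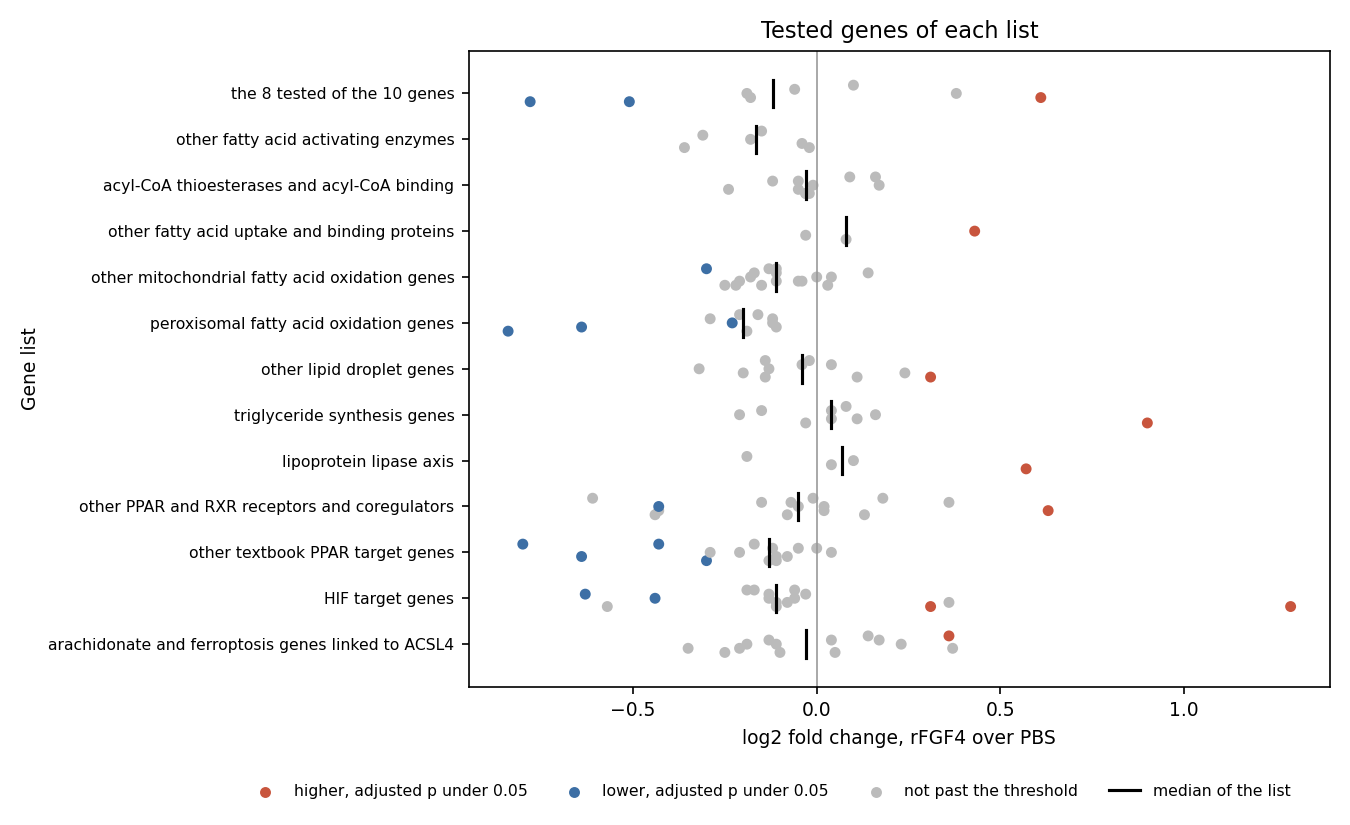
log2 fold change of rFGF4 over PBS for each tested gene (points) of each list (rows), coloured by the edgeR call at an adjusted p of 0.05, with a bar at the list's median. The 3 called peroxisomal genes and the 4 called PPAR targets lie left of 0. Lists share genes: EHHADH is in both of these, and HADHB is a PPAR target and also the called mitochondrial gene.

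Across all these lists, 116 genes outside the 10 were tested, of which 7 rose, 9 fell and 100 did not pass, shares of 6.03% and 7.76%, with a median log2 fold change of −0.08. Over all tested genes the shares were 5.49% and 4.54%.

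Per length, the order of the 10 genes was the same at the top in both groups. ACSL3, ACSL4 and FABP5 were the highest, at means of 20.2, 17.3 and 15.5 FPKM in rFGF4 and 23.3, 13.5 and 10.3 FPKM in PBS. In rFGF4 neighbours in these positions overlapped in range, and in PBS ACSL3 stood apart while ACSL4 and FABP5 overlapped. CPT1A and PPARD followed, with CPT1A first in rFGF4 (6.77 and 6.30 FPKM, overlapping) and PPARD first in PBS (7.32 and 6.44 FPKM, apart). Next came ACSL5, FABP4 and ACSL1 in rFGF4, at 2.98, 2.21 and 1.64 FPKM with no overlap between neighbours. In PBS these genes, in the order FABP4, ACSL5 and ACSL1, stood at 3.20, 3.15 and 2.85 FPKM and overlapped. PLIN2 and ANGPTL4 were the lowest in both groups, ANGPTL4 at 0.735 and PLIN2 at 0.585 FPKM in rFGF4 (overlapping), and PLIN2 at 0.358 and ANGPTL4 at 0.248 FPKM in PBS (apart).

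Within the rFGF4 group, replicate 4 had the lowest ACSL1, ACSL4, FABP4, CPT1A and PPARD and the highest FABP5 and ANGPTL4. In the PBS group, replicate 4 had the highest ACSL1, FABP4 and FABP5 and the lowest ACSL4, ACSL5 and CPT1A. In a group of 4, any library is expected to be lowest or highest for many genes, so these orders are a description only.

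The genes whose profile over the 8 libraries was nearest to that of a called member were found by the mean absolute difference of log2 CPM, each gene centred on its own mean. For ACSL1 they were AP002800 (0.0713), TRIM22 (0.0837) and DNAJB4 (0.0846). TRIM22, an interferon-induced ubiquitin ligase, had 6.73 to 9.08 FPKM in rFGF4 and 13 to 16.5 FPKM in PBS, and DNAJB4, a chaperone, had 1.90 to 2.54 FPKM in rFGF4 and 3.63 to 3.94 FPKM in PBS. For FABP4 they were TP53TG1 (0.0693), SYT7 (0.0736) and ALDH3A2 (0.0792). ALDH3A2, the fatty aldehyde dehydrogenase, had 12.8 to 16.6 FPKM in rFGF4 and 20.8 to 22.2 FPKM in PBS. For FABP5 they included RRS1 (0.0521) and SURF2 (0.0536). RRS1, a ribosome assembly factor, had 66.3 to 72.1 FPKM in rFGF4 and 43.9 to 49.6 FPKM in PBS. Such nearness over 8 libraries in 2 groups is a description and follows in part from the size of the group difference.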

How the data were processed

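The authors deposited 1 table with 2 columns per library, FPKM and counts, per the file headers. Names of columns (C, read as the PBS control, or FGF4, with a replicate number) gave the library. The submitters' processing notes name HISAT2 2.0 and StringTie 1.3.0 without a role. The genome build, the annotation and any use of strand were not given in the sources used here. FPKM was deposited by the authors with 0.0001 in place of 0, read here as 0. The deposited counts were treated as estimated counts, already whole numbers. Low values piled up at 4, 8 and 12 (9781 entries at 4 against 3485 at 3 and 1977 at 5), so about 4 counts stand for 1 fragment, and counting error is larger than the counts imply.

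Y-linked genes, XIST and TSIX (521 genes) were left out. edgeR 4.0.16 (R 4.3.3; TMM scaling, quasi-likelihood test, two-sided, Benjamini-Hochberg adjustment over all tested genes, threshold 0.05) compared 4 rFGF4 with 4 PBS libraries for genes at a mean FPKM of at least 1. SE is the log2 fold change divided by the root of the F statistic. The test planned for PLIN2 and ANGPTL4 had no value under this filter, and theirs come from the filter at 0.1. Alternatives used DESeq2 1.42.0, limma 3.58.1 on log2(FPKM + 1) or log2(FPKM + 0.1), other scalings and filters, counts divided by 4 and libraries left out. The sum of FABP5 with its pseudogenes and the further alternatives for PLIN2 and ANGPTL4 were chosen after seeing the data. On simulated counts for 11536 genes, with 50 genes changed at each fold, 8% of genes changed 1.25-fold were recovered. The share was 40% at 1.5-fold, 84% at 2-fold and 98% at 4-fold. The simulation used the scale of the deposited counts and fewer changed genes than were called here, so these shares need not hold for the real comparison.

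Members and lists were chosen with earlier results of these data known. Named are the 10 genes, list genes past the threshold (at most 6 per direction), the 2 most abundant tested genes of a list with none, and the 3 nearest profiles of each called member, of which 1 is not reported here. DUSP6, ETV5, SPRY4 and FGF4 check the labels. Other genes (the remaining receptors, carriers and perilipins, CPT1B, LPL, LIPG, ACSS3, ACACB, PDK4, LDHA, FABP5P7, ZDHHC6 and KCNE5) were named after their values were seen. No member sequence is printed, since the reference at hand was mouse. No 2 libraries of a group were alike within counting noise, the chi-square per degree of freedom of their fragments being 22.3 to 64.6.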

Additional observations from a re-analysis of the deposited data

Results flagged for a closer look

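No library of the 10 genes stood apart within its group by Dixon's test at 95% (4 libraries a group). Of 52 gene and group combinations tested, over the 10 genes and the list genes past the threshold, 2 did, where chance gives about 1 in 20. CROT in PBS replicate 4 had 7.99 FPKM, with the other PBS libraries at 8.77 to 8.87 FPKM. TXNIP in PBS replicate 2 had 5.32 FPKM, with the others at 4.75 to 4.81 FPKM. Both values lie on the PBS side of the difference between the groups.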

How the results depend on the processing

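The calls for ACSL1, FABP5 and ANGPTL4 held in every alternative fit run for them, and no member changed sign in any. FABP4 passed in 6 of 18 fits, and PLIN2 in 8 of 17, ending also with no filter (adjusted p = 0.0586). Members called higher numbered 3 when genes down to 0.1 FPKM were tested or with filterByExpr and 2 with no filter, because PLIN2 and ANGPTL4 were then tested. Members called lower numbered 1 with each of these filters, with the replicate block and with any library left out (1 to 1), against 2 with all libraries. Leaving out a library gave 326 to 622 genes higher and 275 to 547 lower, against 633 and 524 with all 8, and DESeq2 gave 982 and 846. The replicate numbers are not stated to pair libraries. Same-numbered libraries deviated from their group means with correlations over genes of 0.138, 0.081, −0.024 and 0.207. By these correlations rFGF4 replicates 1, 2 and 4 were nearest to the PBS library of their own number, and replicate 3 was not, so a pairing by number remains possible. With the replicate block 561 genes were higher and 452 lower, and the calls of FABP4 (adjusted p = 0.115) and PLIN2 (0.107) ended. On log2(FPKM + 1) the change of ANGPTL4 was 0.47 and that of PLIN2 0.22, since the pseudocount is larger than their levels. FABP4, PLIN2 and ANGPTL4 rest on the low counts given with them.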
